A study of Mus musculus with 18 samples.

Results

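Naive CD4+ T cells that carried LAT with the Y136F change were compared with WT cells after 1 week of tamoxifen. The 3 arrays titled Y136F and the 3 titled WT at that time were taken, 6 of the 18 arrays of the series, and all measured genes were used. Each array held Cy3-labelled RNA from CD44low CD4+ T cells sorted from the spleen of 1 mouse on the C57BL/6 background. By the titles, Y136F mice were ERCre+ LAT f/m, with a floxed and a mutant allele and a Cre that tamoxifen activates, and WT mice were ERCre- LAT f/-, with a floxed and a null allele. Both groups received tamoxifen for 1 week, and no untreated mice were analysed here. WT cells thus had functional LAT from a single floxed allele, and by the titles they lacked the Cre that Y136F mice carried, whereas the series text gives all mice as Cre-positive. If the titles hold, an effect of the active Cre and an effect of the mutation cannot be told apart. All 3 Y136F mice and WT replicates 1 and 2 were female, and WT replicate 3 was male.

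LAT is a membrane adaptor that the T cell receptor (TCR) kinases phosphorylate on several tyrosines, each of which recruits its own partners. The tyrosine that Y136F removes binds phospholipase C-gamma 1, the enzyme that makes diacylglycerol and inositol trisphosphate and so feeds the Ras-ERK, protein kinase C and calcium-NFAT branches, while the other tyrosines can still recruit GRB2 and GADS. Naive T cells receive weak TCR signals from self-peptides without being activated, and early response genes such as Nr4a1 are commonly used to read the strength of such tonic signals.

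Values are log2 of the background-corrected signal minus the 75th percentile of the array, so that 0 stands for that percentile, and levels of different genes cannot be ranked because each probe has its own brightness. The 75th percentile lay between 1210 and 1896 intensity units in Y136F arrays and between 1250 and 1648 in WT arrays, and the scanner software set 86.0% to 91.6% of Y136F spots and 84.2% to 96.5% of WT spots well above background. Mean correlation with the other arrays of the group was 0.989 to 0.99 in Y136F and 0.972 to 0.979 in WT. The 6 arrays lay on 3 slides, each with 1 array of each group, so a difference within each slide can be given. The median difference over all 31516 genes and unnamed sequences tested was -0.12. It was largest in dim features: with features split into 3 sets by level, the median was -0.36 in the dimmest set of 10333, -0.12 in the next and 0.03 in the brightest. In the dimmest set it was -0.57 and -0.66 on 2 slides and 0.02 on the slide of Y136F replicate 3 and WT replicate 1. In addition, quantile normalization moved the overall median to -0.02. Small differences of dim genes are read against these shifts. All 11 markers of naive CD4 T cells (among them Cd3d, Cd3e, Cd3g, Cd4, Cd28, Lck, Il7r, Ccr7, Lef1 and Tcf7) were well above background on all 6 arrays, with 0 called between the groups. Their summed signal, with each array's 75th percentile set to 1, was 178 to 207 in Y136F and 170 to 184 in WT. In these bulk samples fewer cells of a type and less RNA per cell cannot be told apart.

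Lat itself was higher in the Y136F cells. Its log2 signal was 4.26, 4.17 and 4.32 in Y136F replicates 1 to 3 and 2.75, 3.47 and 3.37 in WT replicates 1 to 3. The groups did not overlap, and the lowest value was that of WT replicate 1. The difference was 1.05 ± 0.23 (SE, n = 3 per group), a 2.08-fold higher level, with an adjusted p of 0.167 in limma. With slide as a block the adjusted p was 0.0044 in the 6 arrays alone and 0.195 in all 18 arrays. Where the probe lies relative to the floxed part of the gene was not given in the sources used here, so this signal does not measure recombination.

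Few genes were called after 1 week in the fit of all 18 arrays, and the 4 named genes that passed all fell. They were the transcription factor genes Nr4a1, Egr3 and Irf4 and the organic cation transporter gene Slc22a2. Of the 31516 features tested, 5 had a limma adjusted p under 0.05 (0.0159%), 1 higher (0.00317%) and 4 lower (0.0127%). At an unadjusted p under 0.05 there were 1899 (6.03%), with 933 higher (2.96%) and 966 lower (3.07%). The number of calls depended on how the spread was estimated. A fit of the 6 arrays alone with slide as a block, the 6-array fit, called 204 features (0.647%), 115 higher (0.365%) and 89 lower (0.282%), with all 5 of the calls above among them. That fit had 2 residual degrees of freedom and took most of its spread from the 19.1 prior degrees of freedom shared over genes. The same block in all 18 arrays, the 18-array slide fit, called 9 features (0.0286%), 3 higher (0.00952%) and 6 lower (0.019%), and the 6 arrays without the block gave 6, so the larger count needed both changes. Those 9 were also called in the 6-array fit, and they were the 5 above with Nr4a3, Cirbp, Rsad2 and Cpt1a, the last of these named after its value was seen. Both adjusted p values are given below for genes that passed the 6-array fit, while "rose" and "fell" are kept for the fit of all 18 arrays without slide. In 2 of the LAT KO arrays that enter this spread, replicate 1 of 1 week and replicate 2 of 4 weeks, the sex-linked genes went against the labelled sex. Without them 21 features were called, 8 higher and 13 lower, including the 5 above, and Egr2 (adjusted p = 0.0069), Egr1 (0.0211), Hsph1 (0.0184), Adat2 (0.0184), P2ry14 (0.0291), Insl6, Wnt10a, Tnfrsf9 and Cd22 (0.0474 each) among them. A second Cd22 probe, not used in the fits, differed by only 0.15.

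**Figure D1:**
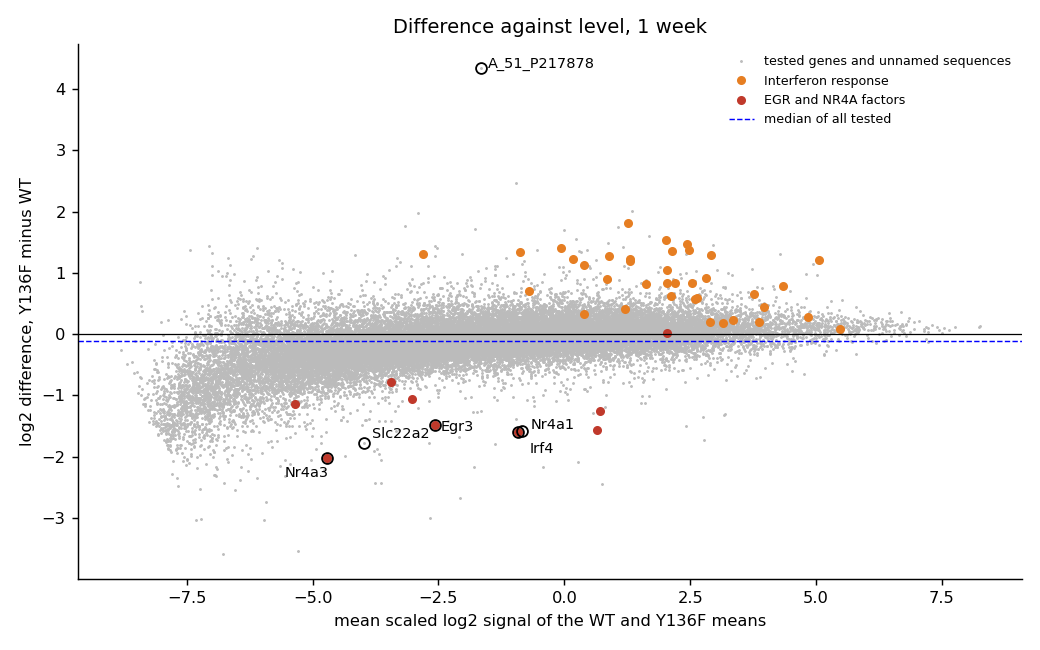
Each grey point is a gene or unnamed sequence, with the mean scaled log2 signal of the WT and Y136F means at 1 week on the horizontal axis and the log2 difference, Y136F minus WT, on the vertical axis. Interferon response genes (orange) lie above 0 and 8 of the 9 EGR and NR4A genes (red) below it, while the dashed median of all features is -0.12 and dim features fan out downward. Black circles mark the 5 called features and Nr4a3.

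The EGR and NR4A list was the lower group with the largest median. NR4A genes encode orphan nuclear receptors and EGR genes zinc finger factors, both induced within minutes to hours of TCR signalling, and NAB1 and NAB2 are corepressors that bind EGR proteins. Of the 9 members 2 fell (Nr4a1 and Egr3) and 7 were not called. At an unadjusted p under 0.05, 8 of 9 were lower and 0 higher. The groups did not overlap, with Y136F lower, for 7 of the 9, against 6.15% of all features. The list's median was -1.25, against -0.12 for all features, and it was -1.64, -1.10 and -1.09 within the 3 slides. In the 26 alternative settings it lay between -1.49 and -0.89. In the 6-array fit 5 members passed (Egr2, Nr4a1, Egr1, Egr3 and Nr4a3), and in the 18-array slide fit 3 did (Nr4a1, Egr3 and Nr4a3).

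Nr4a1, which encodes NUR77, was at -1.82, -1.74 and -1.59 in Y136F replicates 1 to 3 and at -0.20, -0.12 and -0.03 in WT replicates 1 to 3. Every Y136F array was at least 1.39 below the WT array of its slide. Nr4a1 fell by 1.60 ± 0.15 on the log2 scale (limma adjusted p = 0.000214), which is 3.03-fold lower. Nr4a3 (NOR1) was at -5.35, -5.71 and -6.10 in Y136F and -3.79, -3.68 and -3.61 in WT, a wider gap at a dimmer probe. Its difference was -2.02 ± 0.35 with an adjusted p of 0.0681 (0.00502 in the 6-array fit, 0.0405 in the 18-array slide fit). Nr4a2 (NURR1) was at -3.63, -3.30 and -3.71 against -2.69, -2.21 and -2.56. These groups did not overlap either, with a difference of -1.06 ± 0.26 and an adjusted p of 0.214, and it passed neither the 6-array fit (0.0513) nor the 18-array slide fit (0.203).

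Egr3 was at -3.18, -3.28 and -3.47 in Y136F and at -2.00, -1.96 and -1.55 in WT. The groups lay more than 1 unit apart on each slide, and Egr3 fell by 1.47 ± 0.21 (limma adjusted p = 0.0225). Egr2 was at -0.18, -0.05 and -0.16 in Y136F and 1.61, 1.05 and 1.62 in WT. All Y136F arrays lay below all WT arrays, by -1.56 ± 0.27 with an adjusted p of 0.0733 (5.81e-05 in the 6-array fit, 0.0789 in the 18-array slide fit). Egr1 was at -0.03, -0.07 and 0.32 against 1.41, 1.09 and 1.48. The difference was -1.25 ± 0.27 with an adjusted p of 0.164 (0.000393 in the 6-array fit, 0.098 in the 18-array slide fit), again without overlap. Egr4 was not well above background on 1 of the 3 Y136F arrays and the groups overlapped, with values from -6.78 to -5.01 in Y136F and -5.74 to -4.28 in WT. Of the corepressors, Nab2 was at -0.78 ± 0.28 (adjusted p = 0.6) without overlap, and Nab1 at 0.02 ± 0.20 (0.981) with groups that overlapped.

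**Figure D2:**
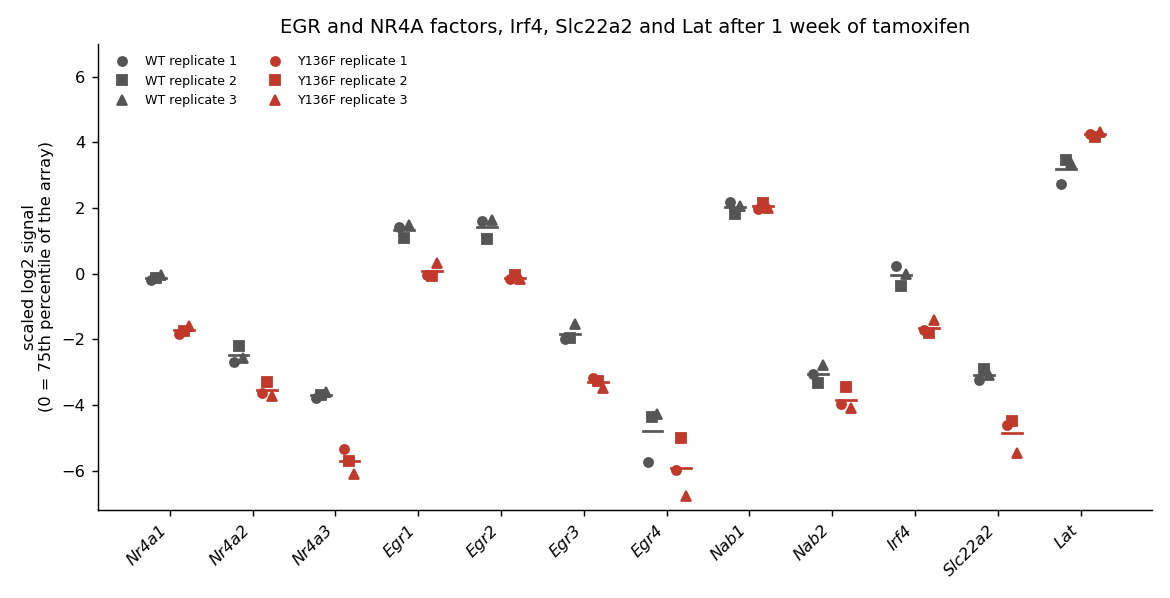
Scaled log2 signal of each array after 1 week of tamoxifen (vertical axis) for the EGR and NR4A list, Irf4, Slc22a2 and Lat, with WT arrays in grey, Y136F arrays in red and bars at the group means. Y136F arrays lie below WT arrays for Nr4a1, Nr4a2, Nr4a3, Egr1, Egr2, Egr3, Nab2, Irf4 and Slc22a2, above them for Lat, and among them for Egr4 and Nab1; heights of different genes are not comparable.

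The promoters of 2 of these nuclear receptor genes and of Irf4 are shown as examples of the lower transcription factor genes, of which Nr4a1 and Irf4 fell and Nr4a3 passed both slide fits. They are the 250 bases before the annotated start, from RefSeq on build GRCm38.p6, 5′ to 3′ on the gene's strand, and capitals mark TGACG or its reverse complement, the core of the cAMP response element that CREB and ATF factors bind. Nr4a1 lies at chr15:101266596-101266845, Nr4a3 at chr4:48045055-48045304 and Irf4 at chr13:30748983-30749232, all on the plus strand.
Nr4a1: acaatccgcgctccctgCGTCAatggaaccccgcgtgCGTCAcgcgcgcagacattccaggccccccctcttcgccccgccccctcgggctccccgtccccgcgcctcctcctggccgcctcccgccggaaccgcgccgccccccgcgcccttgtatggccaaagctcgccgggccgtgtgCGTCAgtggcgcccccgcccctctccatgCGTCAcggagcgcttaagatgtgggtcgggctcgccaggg
Nr4a3: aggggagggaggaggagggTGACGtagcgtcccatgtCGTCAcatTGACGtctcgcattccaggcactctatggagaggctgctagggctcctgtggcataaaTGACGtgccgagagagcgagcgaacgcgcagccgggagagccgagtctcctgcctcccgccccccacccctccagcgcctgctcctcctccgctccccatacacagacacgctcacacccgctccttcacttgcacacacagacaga
Irf4: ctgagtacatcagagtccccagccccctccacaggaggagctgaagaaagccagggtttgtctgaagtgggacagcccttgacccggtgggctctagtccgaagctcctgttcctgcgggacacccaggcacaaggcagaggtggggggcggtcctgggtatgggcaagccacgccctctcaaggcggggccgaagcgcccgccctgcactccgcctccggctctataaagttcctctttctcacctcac

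Both nuclear receptor promoters held 4 matches and the Irf4 window held 0. Among the 7 of 9 EGR and NR4A genes with a promoter in the table, 6 had at least 1 match, 85.7% against 19.8% of all 27025 genes with a promoter there. The 6 were Nr4a1, Nr4a2, Nr4a3, Egr2, Egr4 and Nab1, of which Egr4 had overlapping groups and Nab1 differed by 0.02. Egr3, which fell, was not among the 7. The motif was 1 of 8 searched on both strands, and the one to show was picked after the matches were seen. The EGR site GCGNGGGCG was in 3 of the 7 (5.33% of all genes) and the CArG box, which serum response factor binds, in 1 (1.62%). The NF-kB site was in 3 (8.23%), the NFAT core GGAAAA in 1 (22.9%), and the AP-1 site TGANTCA (7.82%) and the whole cAMP response element TGACGTCA (1.77%), which contains TGACG, in 0. A match describes these letters in this window and is no measure of binding.

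Irf4, an interferon regulatory factor induced in proportion to TCR signal strength, was at -1.70, -1.80 and -1.42 in Y136F and at 0.24, -0.39 and -0.02 in WT. The groups did not overlap and differed by -1.68, -1.41 and -1.67 within the slides. Irf4 fell by 1.59 ± 0.23 (limma adjusted p = 0.0225), 3.01-fold. In the IRF family list 1 of 9 fell and 8 were not called, with a median of -0.10. Irf7, which interferon itself induces, went the other way at 1.37 ± 0.30 (adjusted p = 0.164).

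Slc22a2 was at -4.61, -4.50 and -5.46 in Y136F and -3.25, -2.89 and -3.09 in WT. Y136F replicate 3 was the lowest, and no Y136F array reached a WT array. The gene fell by 1.78 ± 0.28 (limma adjusted p = 0.04). Irf4 and Egr3 each lost the call without 5 of the 6 arrays taken out singly, keeping it only without WT replicate 2 and WT replicate 1, respectively. Slc22a2 lost it without any of them, with an adjusted p of 0.0571 to 0.177, and Nr4a1 kept it without each.

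The feature that rose was the unnamed sequence A_51_P217878, by 4.34 ± 0.43 (limma adjusted p = 0.00214), and this value rests on a left-out spot. It was at 0.18, 0.62 and 0.72 in Y136F and at -4.79 and -2.87 in WT replicates 1 and 2, since the spot of WT replicate 3 was marked as an outlier. With that spot kept, WT replicate 3 stood at 1.43, above every Y136F array, and the call was lost (adjusted p = 0.943). The LAT KO arrays of 1 week were split in the same way, at -3.74, 1.06 and 1.27, the last 2 being spots left out as outliers. At 4 weeks no spot of WT or Y136F was left out. The feature was then at 0.93, 1.52 and 1.39 in Y136F and -3.11, -2.34 and -2.61 in WT. That difference was 3.97 ± 0.39 (limma adjusted p = 0.000121), at a time when genotype and sex cannot be told apart.

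The other lists of genes in the branches below phospholipase C-gamma 1 held no call. In the ERK feedback list, phosphatases and inhibitors that ERK induces and that restrain it, 0 of 15 passed and the median was -0.32. At an unadjusted p under 0.05, 5 were lower and 1 higher. Spry1, a Ras-ERK inhibitor, was at -3.11, -2.70 and -3.13 in Y136F and -2.13, -1.87 and -2.19 in WT. The groups were apart, by -0.92 ± 0.21 (adjusted p = 0.181). The ERK phosphatase gene Dusp6 differed by -0.41 ± 0.17 (adjusted p = 0.745), and Dusp2 by -0.75 ± 0.18 (0.212). Among 13 AP-1 and BATF genes 0 passed (median 0.03). Fos was at -1.77 ± 0.44 (adjusted p = 0.224), with Y136F values from -5.86 to -5.53 and WT values from -4.37 to -3.58, and an adjusted p of 0.0208 in the 6-array fit and 0.251 in the 18-array slide fit. Fosb was at -0.66 ± 0.18 (0.309).

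The calcium, calcineurin and NFAT list had 0 of 20 called and a median of 0.03. Nfatc1, whose short isoform NFAT induces, was at -0.52 ± 0.19 (adjusted p = 0.644) without overlap, and the calcineurin subunit gene Ppp3cc at 0.61 ± 0.24 (0.69). The list of diacylglycerol, protein kinase C, Ras and class IIa HDAC genes had 0 of 21 called and 0 of 21 at an unadjusted p under 0.05 (median 0.02). The NF-kB and CBM list was alike in count, with 0 of 14 by either rule (median -0.09). Of 20 TCR-induced cytokine and TNF family genes 0 passed. In that list Tnfrsf9, the costimulatory receptor 4-1BB, was at -1.47, -1.09 and -1.01 in Y136F and 0.14, -0.16 and -0.01 in WT. These arrays did not overlap, and the difference was -1.18 ± 0.36 (adjusted p = 0.454; 0.00172 in the 6-array fit, 0.372 in the 18-array slide fit).

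Among the 17 LAT signalosome genes Lat had the smallest p and 0 were called (median 0.01). Of 15 genes for the TCR complex, coreceptor and proximal kinases 0 were called and the median was 0.11. The Tec family kinase gene Tec was at 0.49, 1.00 and 0.64 in Y136F and 0.17, -0.17 and -0.30 in WT, without overlap. Its difference of 0.81 ± 0.17 had an adjusted p of 0.143 (0.0326 in the 6-array fit, 0.0789 in the 18-array slide fit). Of the negative tuners of TCR signalling, 0 of 15 passed (median -0.21), with the phosphatase gene Ptpn6, which encodes SHP-1, at -0.59 ± 0.15 (adjusted p = 0.266) and Ubash3b at -0.52 ± 0.15 (0.398), both with lower Y136F arrays throughout.

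Interferon response genes were the higher group with the largest median. The list holds genes that type I interferon induces through the transcription factor complex ISGF3, among them antiviral effectors and sensors. Of the 42 members 37 were tested, the others having no named probe, 0 were called and all 37 had a positive difference. At an unadjusted p under 0.05, 29 were higher and 0 lower. Y136F and WT arrays did not overlap for 29 of the 37, all with Y136F higher, against 4.46% of all features. The median was 0.84 and lay between 0.70 and 1.02 in the 26 alternative settings. Within the slides it was 0.55, 1.23 and 0.87, so Y136F replicate 2 against WT replicate 2 gave the widest gap and Y136F replicate 1 against WT replicate 3 the narrowest. In the 6-array fit 23 of the 37 passed, all higher, and in the 18-array slide fit 1 did, Rsad2.

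Among the regulators, Irf7 was at 3.06, 3.58 and 2.82 in Y136F and 1.15, 1.86 and 2.35 in WT. The groups were apart, with WT replicate 3 the closest to Y136F, and the adjusted p was 0.000562 in the 6-array fit and 0.0732 in the 18-array slide fit. Irf9, a subunit of ISGF3, differed by 0.45 ± 0.17 (adjusted p = 0.67) and Stat2, another subunit, by 0.70 ± 0.23 (0.511). Among the effectors, Isg20, an exonuclease that degrades viral RNA, was at 2.99, 3.85 and 2.70 in Y136F and 1.24, 1.64 and 2.23 in WT. Y136F replicate 2 stood highest, and the difference was 1.47 ± 0.30 (adjusted p = 0.143; 0.00061 in the 6-array fit, 0.0724 in the 18-array slide fit). Oasl2, an oligoadenylate synthetase-like gene, had the highest difference of the list at 1.81 ± 0.42 (adjusted p = 0.186). Its values were 2.09, 2.75 and 1.67 in Y136F and -0.43, 0.79 and 0.72 in WT. Rsad2, which encodes the antiviral protein viperin, differed by 1.53 ± 0.37 (0.212; 0.0405 in the 18-array slide fit). Isg15, the ubiquitin-like modifier, was at 1.28, 2.34 and 0.97 in Y136F and -0.50, 0.35 and 0.92 in WT. Here the lowest Y136F array was just above the highest WT array, and the difference was 1.27 ± 0.34 (adjusted p = 0.286). Parp9, an ADP-ribosyltransferase of the interferon response, had the list's smallest adjusted p at 0.106, with a difference of 0.84 ± 0.16, and Ly6a, which encodes the surface protein Sca-1, differed by 0.79 ± 0.15 (0.129). The immunoproteasome and peptide transport genes Psmb8, Psmb9 and Tap1 differed less, by 0.28, 0.22 and 0.32.

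**Figure D3:**
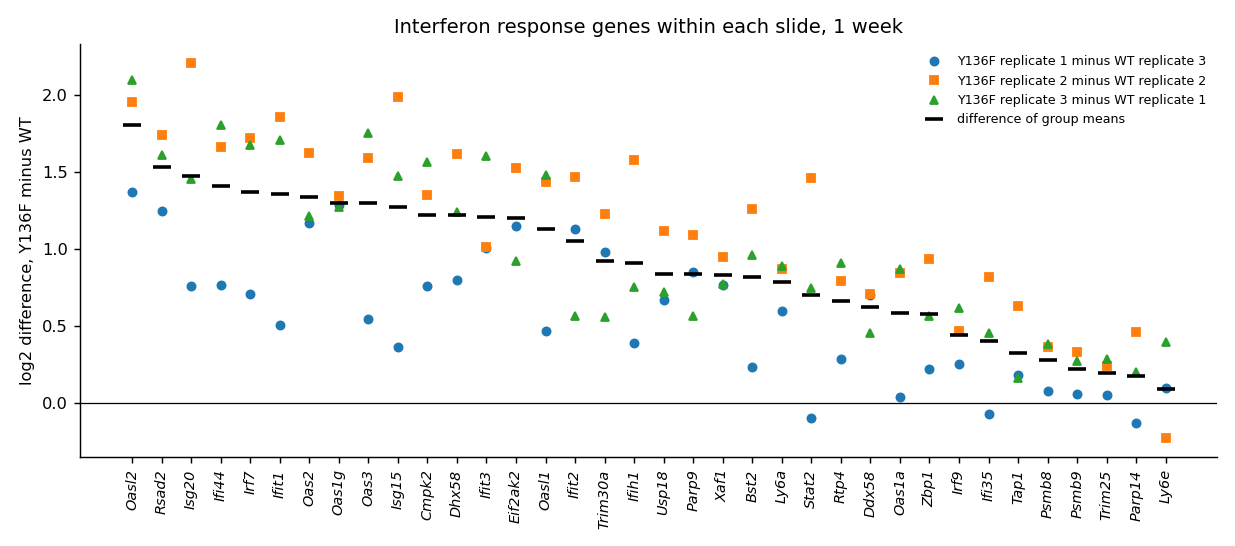
Log2 difference between the Y136F and the WT array of each slide at 1 week (vertical axis, coloured symbols) for the interferon response genes drawn, ordered by the difference of group means (black bars). All black bars drawn lie above 0, and slide by slide only Stat2, Ifi35, Parp14 and Ly6e have a symbol below 0.

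Of the genes outside the lists that were chosen for a small p, at least a 2-fold difference and no overlap, 4 more are interferon-induced genes. Ifitm3, which blocks virus entry, was at 2.27, 3.17 and 2.03 in Y136F and 0.33, 1.25 and 1.09 in WT. The difference was 1.60 ± 0.33 (adjusted p = 0.143). Ube2l6, the conjugating enzyme for ISG15, differed by 1.48 ± 0.31 (0.154), Parp12 by 1.11 ± 0.23 (0.148) and Ifit1bl1 by 1.05 ± 0.21 (0.143). All 4 passed the 6-array fit and 0 the 18-array slide fit, where their adjusted p was 0.0547 to 0.0925.

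Parts of 4 promoters of the list are shown because they hold the interferon-stimulated response element, searched as GAAA, any 2 bases and GAAA, in capitals on either strand, with up to 20 bases around the matches. They are from RefSeq on GRCm38.p6, and lie within the 250 bases before the start: Isg15 at chr4:156200855-156200916 (minus strand), Ifit1 at chr19:34640765-34640833 (plus), Ifit3 at chr19:34583353-34583436 (plus) and Oas1a at chr5:120907526-120907565 (minus).
Isg15: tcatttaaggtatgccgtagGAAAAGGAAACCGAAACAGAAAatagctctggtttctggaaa
Ifit1: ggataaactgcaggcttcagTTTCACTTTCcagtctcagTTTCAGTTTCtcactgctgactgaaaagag
Ifit3: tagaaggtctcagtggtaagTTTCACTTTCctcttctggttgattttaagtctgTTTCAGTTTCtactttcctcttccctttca
Oas1a: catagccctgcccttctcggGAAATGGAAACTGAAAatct

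Isg15 held 3 overlapping matches, and Ifit1, Ifit3 and Oas1a held 2 each. Of the 27 tested interferon genes with a promoter in the table, 10 had a match (37%), against 3.46% of all genes with a promoter. Differences at 1 week were 1.36 ± 0.39 for Ifit1, 1.21 ± 0.28 for Ifit3 and 0.59 ± 0.26 for Oas1a, so genes with matches spanned a wide range of differences. Of the other motifs searched, the NFAT core was in 12 of the 27 (44.4%, against 22.9% of all genes) and TGACG in 6 (22.2%, against 19.8%). The AP-1 and NF-kB sites were in 5 each (18.5%, against 7.82% and 8.23%). The CArG box, the EGR site and TGACGTCA were in 0.

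Regulatory T cell genes were lower as a group without any call. Of the 20 tested members 0 passed, 19 had a negative difference, and 7 were lower at an unadjusted p under 0.05, against 3.07% of all features. The median of all features was itself -0.12, and 4 of the 20 lay above it. Tnfrsf9, Cd83 and Il2ra are also in the TCR-induced list and Ctla4 in that of inhibitory receptors, so these lists are not independent. The regulatory T cell list's median was -0.43, and -0.30, -0.37 and -0.43 within the slides. Summed over the list, the signal was 36.3 to 41.8 in Y136F and 47.8 to 52.7 in WT, so the groups did not overlap. Gpr83, a receptor gene prominent in regulatory T cells, was at 0.78, 0.96 and 1.40 in Y136F and 2.29, 2.21 and 1.65 in WT. The closest pair was Y136F replicate 3 and WT replicate 3, and the difference was -1.003 ± 0.22 (adjusted p = 0.164; 0.0028 in the 6-array fit, 0.0925 in the 18-array slide fit). The inhibitory receptor gene Ctla4 differed by -0.88 ± 0.24 (0.327), with an adjusted p of 0.0249 in the 6-array fit and 0.46 in the 18-array slide fit. Foxp3, which defines the lineage, was at -0.04, -0.04 and 0.00 in Y136F and 0.40, -0.05 and 0.06 in WT. The groups overlapped, with a difference of -0.16 ± 0.28 (adjusted p = 0.903). Ikzf2, which encodes Helios, was at -0.24 ± 0.38 (0.899). The CD44low sort removes CD44high cells but not every regulatory T cell, and what part these cells have in the list's values was not tested.

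In the list of inhibitory receptors and anergy genes 0 of 17 passed and 13 were negative (median -0.33). Above the median of all features, itself -0.12, lay 6 of the 17. Lag3, an inhibitory receptor that binds MHC class II, was at -5.71, -5.69 and -5.93 in Y136F and -3.42, -4.51 and -3.46 in WT. WT replicate 2 was the lowest WT array, still above all Y136F arrays, and the difference was -1.98 ± 0.46 (adjusted p = 0.181; 0.0112 in the 6-array fit, 0.228 in the 18-array slide fit). Heat shock genes had 17 of 19 negative, 4 of 19 above the median of all features and 0 called (median -0.30). Hsph1, a chaperone of the HSP110 family, was at 1.204, 1.86 and 1.93 in Y136F and 3.07, 2.94 and 3.46 in WT, with a difference of -1.50 ± 0.28 (adjusted p = 0.106). It was lowest in Y136F replicate 1, whose slide also gave the list's lowest median, -0.52 against -0.13 and -0.11 on the other slides. Th2 genes had 0 of 16 called (median -0.24), with the transcription factor gene Nfil3 at -0.71 ± 0.27 (0.667).

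**Figure D4:**
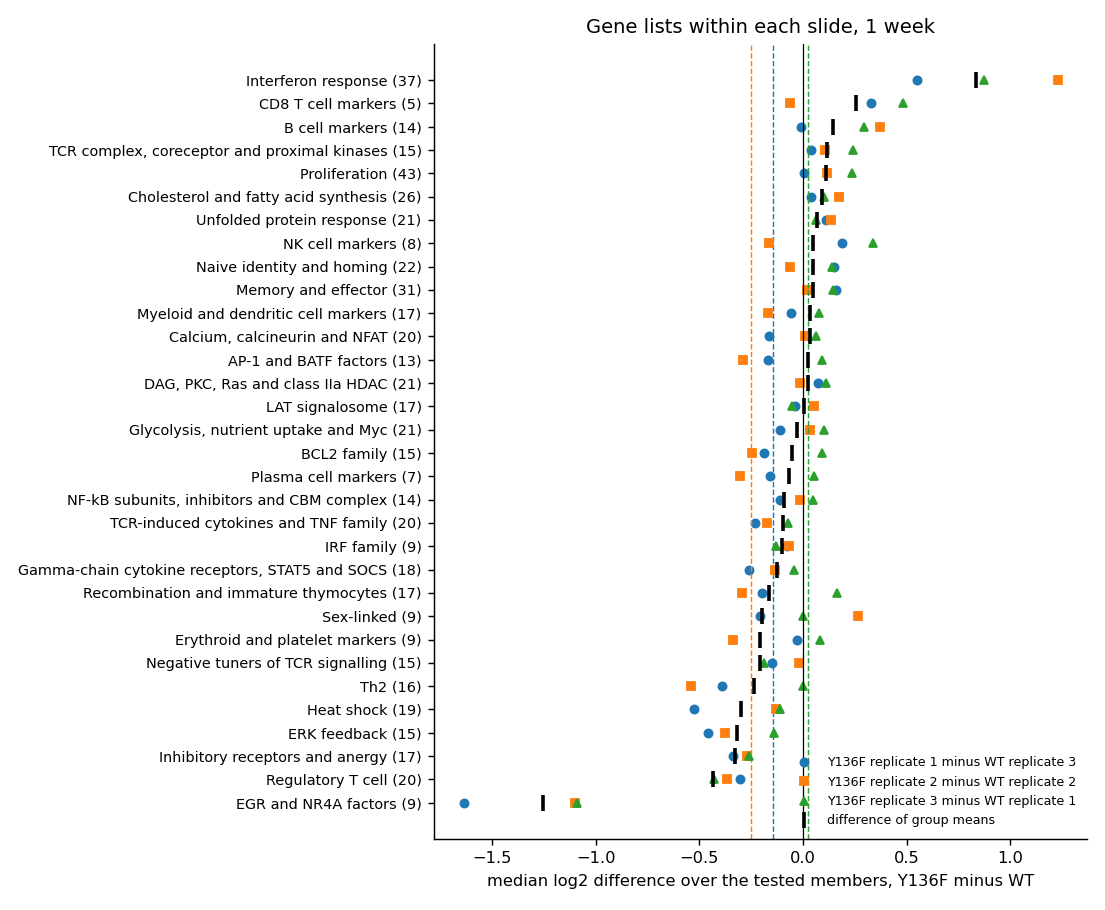
Median log2 difference, Y136F minus WT at 1 week (horizontal axis), over the tested members of each gene list (number in brackets), within each slide (coloured symbols) and from the group means (black bars); dashed lines give the median of all features in the same slide. The EGR and NR4A list lies between -1.64 and -1.09 and the interferon list between 0.55 and 1.23, while most other lists lie within 0.5 of 0.

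Naive identity and effector genes showed little. Of 22 naive identity and homing genes 0 passed (median 0.05), and Ccr7, Il7r, Lef1 and Tcf7 all had differences between -0.13 and 0.23. Of 31 memory and effector genes 0 passed (median 0.05). The cytotoxic granzyme gene Gzma was at -2.68, -1.29 and -2.87 in Y136F and -4.56, -3.31 and -4.27 in WT. Y136F replicate 2 was the highest array, and the difference was 1.77 ± 0.61 (adjusted p = 0.568; 0.000804 in the 6-array fit, 0.214 in the 18-array slide fit). Gzmk differed by 1.30 ± 0.44 with overlapping groups (0.556), and Gzmb by 1.04 ± 0.54 (0.867). Cd44, the surface marker that the sort excluded, was at -0.10 ± 0.26 (0.933). Proliferation genes had 0 of 43 called and 32 positive (median 0.11), with the mitotic kinase gene Cdk1 at 0.99 ± 0.44 (0.806). A second, dimmer Cdk1 probe differed by only 0.19. Of 26 cholesterol and fatty acid synthesis genes 0 passed (median 0.09), with the sterol-regulated gene Insig1 at 0.61 ± 0.20 (0.523). Counts of called genes were 0 in the lists for glycolysis and Myc (21 tested, median -0.03), unfolded proteins (21, 0.07), the BCL2 family (15, -0.05), gamma-chain cytokine signalling (18, -0.13) and recombination (17, -0.16). Within these, the pro-apoptotic gene Bbc3, which encodes PUMA, was at -0.64 ± 0.21 (0.505), and the cytokine signalling inhibitors Socs3 and Cish at 0.57 ± 0.14 (0.223) and -0.65 ± 0.24 (0.658). Dntt, the terminal transferase of receptor gene recombination, was at 2.98, 3.33 and 3.09 in Y136F and 2.54, 2.51 and 2.19 in WT. The groups were apart by 0.72 ± 0.17 (adjusted p = 0.186; 0.0397 in the 6-array fit, 0.0724 in the 18-array slide fit).

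Other genes, chosen for a small p, at least a 2-fold difference and no overlap of the groups, included P2ry14, the receptor for UDP-glucose. It was at -1.97, -1.39 and -2.12 in Y136F and -3.29, -3.07 and -3.32 in WT. The difference was 1.40 ± 0.25 (adjusted p = 0.0733; 0.00312 in the 6-array fit, 0.0653 in the 18-array slide fit). Cirbp, the cold-inducible RNA-binding protein, was at 2.18, 1.79 and 1.66 against 0.73, 0.35 and 0.30, a difference of 1.42 ± 0.28 (0.129; 0.000218 in the 6-array fit, 0.0476 in the 18-array slide fit). Insl6, a relaxin-like peptide gene, differed by 1.15 ± 0.22 (0.106), Adat2, a subunit of a tRNA-editing deaminase, by 1.195 ± 0.25 (0.161), and Ly6c1, a surface protein gene, by 1.03 ± 0.20 (0.143). Wnt10a, a WNT ligand, was on the lower side at -4.22, -4.22 and -3.92 in Y136F and -2.84, -2.13 and -2.66 in WT. Its difference was -1.57 ± 0.26 (adjusted p = 0.0635). Of the 99 named genes with an unadjusted p under 0.001, 10 lay on chromosome 7, where Lat lies, which is 10.1% against 8.78% of the named genes tested.

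Markers of other cell types were called in 0 cases, and some summed signals differed between the groups. The B cell list summed to 10.2 to 15.5 in Y136F and 8.77 to 10.2 in WT over 14 genes, with Y136F replicate 2 the highest. Of its genes Cd22 was at 1.71 ± 0.80 (adjusted p = 0.824; 0.00017 in the 6-array fit, 0.557 in the 18-array slide fit), while Cd79a and Pax5 were at -0.21 ± 0.28 (0.894) and -0.36 ± 0.22 (0.892). The Cd22 value is that of its brightest probe, and a second Cd22 probe, well above background on all 18 arrays, differed by only 0.15. The myeloid list summed to 31.5 to 38.3 in Y136F and 29.6 to 31.2 in WT over 16 genes. Most of that sum was Ctss, at 4.65, 4.93 and 4.88 in Y136F and 4.69, 4.55 and 4.54 in WT. The CD8 T cell list summed to 43.8 to 53.3 and 28.9 to 41.2 over 5 genes. Ly6c2 was at 0.55 ± 0.16 (adjusted p = 0.407) and Cd8a, which defines the lineage, at 0.10 ± 0.16 (0.898). NK cell (8.37 to 10.3 and 6.87 to 9.41), plasma cell (2.55 to 2.77 and 2.60 to 2.79) and erythroid and platelet markers (2.51 to 3.52 and 2.62 to 5.75) overlapped. Y136F replicate 2 thus had the highest sums of the B cell, myeloid and CD8 lists, as it had for the interferon list. The myeloid and CD8 sums rest mostly on Ctss and Ly6c2, and Cd8a was lowest in that replicate. The part of other cells in these results was not tested. Of the sex-linked list, Xist was at 0.01 to 0.32 in Y136F, at 0.50 and -0.19 in WT replicates 1 and 2 and at -3.98 in the male WT replicate 3, and Ddx3y was at 0.04 in WT replicate 3 and at -8.27 or lower elsewhere, so the 6 arrays matched their labelled sex. With labelled sex as a term, Nr4a1 and Egr3 kept their calls, while Irf4 (adjusted p = 0.0629) and Slc22a2 (0.113) did not. That term used the labels of all 18 arrays. Without the 2 LAT KO arrays that went against them, Nr4a1 kept the call with a sex term (0.00354), and Egr3 (0.0548), Irf4 (0.0548) and Slc22a2 (0.069) did not.

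The Y136F effect was next compared between 1 and 4 weeks, in groups that share no arrays. All 4-week WT mice were male and all 4-week Y136F mice female, so sex and genotype cannot be told apart at 4 weeks. The change of the effect was called for 163 of 31471 features (0.518%), 123 with a higher difference at 4 weeks (0.391%) and 40 with a lower one (0.127%). With sex as a term it was 50. Without the LAT KO arrays that went against their sex label it was 573, the earlier 163 among them, and 440 with sex as a term as well. For Nr4a1 the difference was -1.60 ± 0.15 at 1 week and -0.49 ± 0.15 at 4 weeks (adjusted p = 0.1), and the change of 1.11 ± 0.22 passed (limma adjusted p = 0.0267). At 4 weeks Nr4a1 stood at -1.30, -0.995 and -0.82 in Y136F and -0.69, -0.36 and -0.57 in WT, so both groups had moved towards each other. Changes of similar size for Egr1 (1.69 ± 0.38, adjusted p = 0.0567), Egr2 (1.40 ± 0.39, 0.126), Nr4a2 (1.65 ± 0.37, 0.053) and Egr3 (1.15 ± 0.30, 0.106) did not pass. The list's median difference was -1.25 at 1 week and -0.16 at 4 weeks, and 1 of its 9 changes was called. Irf4 and Slc22a2 were lower at both times, by -1.59 and -1.05 and by -1.78 and -1.35, with changes of 0.53 ± 0.33 (0.793) and 0.43 ± 0.40 (0.951).

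For the interferon list the median difference was 0.84 at 1 week and 0.36 at 4 weeks, with 0 of 37 changes called (median change -0.47). Of the 4 interferon-induced genes named outside the list, Ifitm3 was at 1.60 and 2.44, Parp12 at 1.11 and 1.19 and Ube2l6 at 1.48 and 1.43, and these 3 passed at 4 weeks, when 1068 features did (3.39%), 779 of them higher (2.47%) and 289 lower (0.917%). The other, Ifit1bl1, was at 1.05 and 0.04 (adjusted p = 0.927 at 4 weeks), a change of -1.01 ± 0.30 that did not pass (0.168). Several genes had opposite signs at the 2 times. Ly6c1 was at 1.03 ± 0.20 and -0.79 ± 0.20, a change of -1.81 ± 0.29 (adjusted p = 0.00714). Tec, Dntt, Prf1 and Bank1 turned the same way, by -1.27, -1.40, -1.13 and -1.24. Nfil3 went from -0.71 ± 0.27 to 1.99 ± 0.27 (change 2.70 ± 0.38, 0.00369), and Cish and Nfatc1 turned upward by 1.74 and 1.41. Effector and naive genes stood further apart at 4 weeks. In the memory and effector list 6 of 31 changes were called higher, and in the naive list 4 of 22 lower. Gzma had a difference of 6.64 ± 0.61 at 4 weeks (change 4.87 ± 0.87, adjusted p = 0.0137), and Dapl1, a gene of naive T cells, went from -0.01 ± 0.23 to -2.93 ± 0.23 (change -2.92 ± 0.32, 0.000416).

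**Figure D5:**
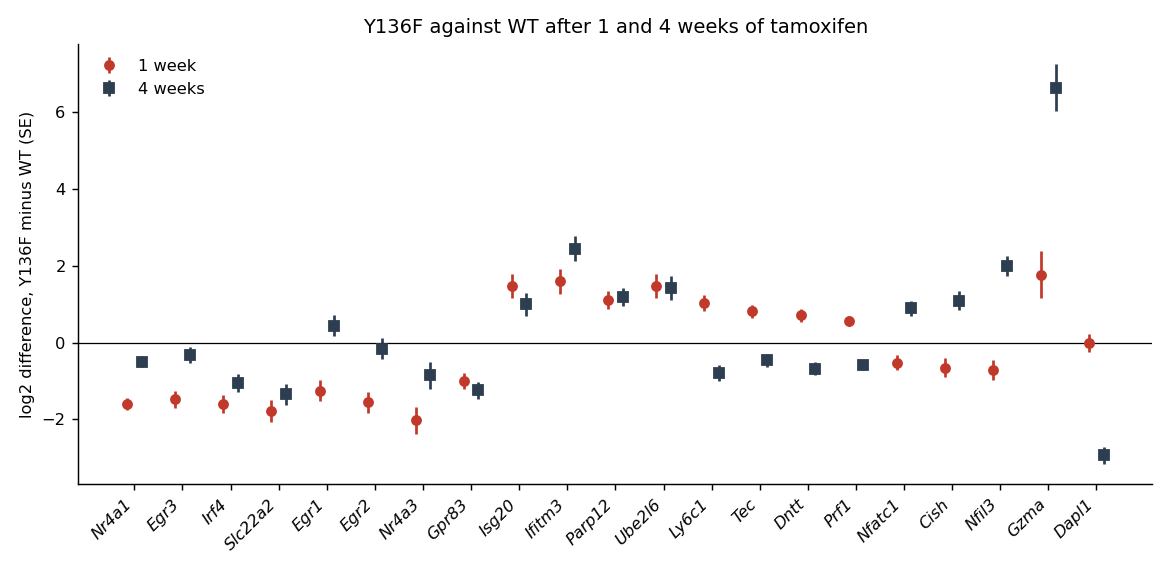
Log2 difference, Y136F minus WT, with its SE (vertical axis) after 1 week (red circles) and 4 weeks (dark squares) of tamoxifen, n = 3 mice per group and time. Nr4a1, Egr1, Egr2 and Egr3 are lower at 1 week than at 4 weeks, Irf4, Slc22a2 and Gpr83 are negative at both times, and Gzma (6.64) and Dapl1 (-2.93) stand apart at 4 weeks.

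Y136F and LAT KO cells were last set side by side at 1 week. LAT KO mice were ERCre+ LAT f/-, and in LAT KO replicate 1 the sex-linked genes went against the labelled sex, so values are also given without it. LAT KO minus Y136F had 0 of 31495 features called (0%), also without that array. At an unadjusted p under 0.05 there were 1796, and the smallest adjusted p was 0.0818, so a difference between the mutants was not detectable with these arrays. Both mutants were compared with the same WT arrays, so their differences from WT are not independent. LAT KO minus WT had 6 features called (0.019%), 9 without replicate 1. Nr4a1 was at -1.60 in Y136F and -2.02 in LAT KO (-1.95 without replicate 1), Irf4 at -1.59 and -2.02 (-2.05), and Egr3 at -1.47 and -1.52 (-1.48). Egr2 was at -1.56 and -2.44 (-2.77), and Egr1 at -1.25 and -2.32 (-2.72). The direct difference between LAT KO and Y136F was -0.88 ± 0.27 for Egr2 (adjusted p = 0.856) and -1.07 ± 0.27 for Egr1 (0.856). Without LAT KO replicate 1 these were -1.21 ± 0.25 (0.189) and -1.46 ± 0.22 (0.0725). The median of the interferon list was 0.84 in Y136F and 0.68 in LAT KO against WT (0.64 without replicate 1), and that of the regulatory T cell list -0.43 and -0.38 (-0.74). Lat was at -1.72 ± 0.26 in LAT KO against Y136F (adjusted p = 0.0841), with 1 LAT KO spot left out as an outlier. Against WT, Lat in LAT KO was at only -0.67 ± 0.26 and was not called. The left-out spot, of LAT KO replicate 2, stood at 3.19, within the WT range of 2.75 to 3.47. Without replicate 1, which left a single LAT KO array, Lat was at -1.52 against Y136F and -0.47 against WT.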

How the data were processed

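RNA of 18 mice was hybridised singly to Agilent 4x44k arrays. Spots were extracted by the authors with Agilent Feature Extraction 10.5.1.1, per the file headers (10.5 and limma, per the submitters' processing notes). The deposited signal is Cy3 intensity after the scanner software's background correction. The deposited series matrix holds log2 values whose centring is not given in the sources used here, and served as an alternative only.

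Log2 intensity was set relative to the array's 75th percentile over its 43379 spots other than controls, outlier spots (229 to 344 on the 6 arrays) were left out, and spots of a probe were averaged. Symbols came by accession from RefSeq (GRCm38.p6), which named 24844 of 41174 probes; the array design refers to mm9. The brightest probe of a gene was used if well above background on at least 3 arrays, leaving 31566 features, 17051 named.

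Limma 3.58.1 in R 4.3.3 was fitted to all 18 arrays with 6 group means and an intensity trend (12 residual and 5.44 prior degrees of freedom), with two-sided tests, p-values adjusted over all features (Benjamini-Hochberg) and a threshold of 0.05. The replicates are single mice and the number of arrays limits the precision. The fit was tested on simulated data.

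Named are Lat; all called features; up to 10 higher and 10 lower genes with the smallest p, a log2 difference of at least 1 and no overlap; all EGR and NR4A genes and the leading members of 31 other lists; and the largest called changes of the other comparisons. Markers of naive cells, genes described with a list and promoters shown were added after values were seen. Values of some list members are not reported here. Comparison, lists and rule were chosen with earlier results of these data known.

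Replicate numbers did not pair the arrays (r = 0.01, 0.36 and -0.26 between same-numbered arrays). Arrays of the same slide correlated at 0.06, 0.36 and 0.39. Alternatives were other background correction, normalization, probe, filter and outlier rules, the series matrix, slide, sex or replicate terms, smaller sample sets, no trend, array weights and each array left out. Figures were drawn with matplotlib 3.10.9 in Python 3.11.15. A term for the percentage of spots above background and the omission of 2 LAT KO arrays were chosen after seeing the data.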

Additional observations from a re-analysis of the deposited data

Results flagged for a closer look

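Change of the Y136F effect from 1 to 4 weeks: the effects at the 2 times differed for 163 features by the test of the difference itself in limma, and for the following named genes. The difference was higher at 4 weeks by 1.11 for Nr4a1, 1.41 for Nfatc1, 1.74 for Cish, 2.70 for Nfil3 and 4.87 for Gzma. Efna5, an ephrin ligand gene, the chemokine gene Ccl1, the growth factor gene Csf1 and the protease inhibitor gene Slpi changed by 4.67, 4.22, 4.05 and 3.98. At 1 week these 4 lay between -0.59 and -0.28, and at 4 weeks all 3 Y136F arrays were above all WT arrays.

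The difference was lower at 4 weeks by -1.81 for Ly6c1, -1.24 for Bank1, -1.13 for Prf1, -1.40 for Dntt, -1.27 for Tec, -2.92 for Dapl1, -2.39 for Adh1 and -2.38 for Zfp608. Trim12a, a TRIM5-family gene on chromosome 7, changed by -6.52: it was at 3.78, 3.68 and 3.53 in Y136F and 3.25, 3.20 and 3.14 in WT at 1 week, and at -2.88, -3.03 and -3.93 against 2.99, 2.69 and 2.64 at 4 weeks. For Trim55 (-4.19) outlier spots left 1 array per group at each time, so its value has no replicate behind it. All 4-week WT mice were male and all Y136F mice were female at both times, so genotype and sex cannot be told apart at 4 weeks. With sex as a term 50 features were called, and 440 when the 2 LAT KO arrays that went against their sex label were left out as well.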

How the results depend on the processing

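The results were recomputed in 26 settings. The count for Y136F minus WT at 1 week, 5 in the main setting, was 3 with quantile normalization, 2 with the series matrix, 9 with the strict filter on dim probes, 3 with flagged spots kept, 9 with slide as a fixed block and 13 as a random block, 11 with the replicate block, 0 with female mice only (1213 at an unadjusted p under 0.05 in limma), 204 with the 6 arrays and slide as a block and 347 with array weights, and 21 without the 2 LAT KO arrays against their sex label (5 with sex as a term as well, 2 of them shared). It was 2 to 4 with an array left out (2 without any of the Y136F arrays, 3 without WT replicate 2 or 3). The count for Change of the Y136F effect from 1 to 4 weeks, 163, was 50 with sex as a term, 485 with only the groups compared and 403 with slide as a block as well, 99 without the intensity trend 1179 with array weights, 573 without the 2 LAT KO arrays (440 with sex as a term as well), and 61 to 161 with an array left out, moving by over 1.5 times without any array but WT replicate 1 of either time. Female mice only could not be run for it. KO minus Y136F at 1 week, with a count of 0, gave 1 with normexp, quantile normalization, the replicate block, only the groups compared and the percentage of spots above background as a term, and 137 with array weights. The 6 arrays with slide as a block could not be fitted there.

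Nr4a1 was called in 25 of 26 settings (not with female mice only, adjusted p = 0.0844), Irf4 in 17, Egr3 in 16 and Slc22a2 in 12, all with a negative difference throughout. The size of a difference also depended on the setting. It lay between -1.68 and -1.43 for Nr4a1, but between -1.96 and -0.99 for Slc22a2. The dim genes Nr4a3, Lag3 and Fos ranged from -2.21 to -0.89, from -2.33 to -0.89 and from -1.98 to -0.78. The replicate block added P2ry14 (0.0191), Cirbp (0.0445) and Egr2 (0.0191) among the named genes. Nab1 turned negative with quantile normalization (-0.028), sex as a term (-0.069), the percentage of spots above background as a term (-0.036) and without single arrays (-0.081 to 0.099). Dapl1 turned positive with array weights (0.13) and without single arrays (-0.15 to 0.072). The cause of these moves was not tested. Signal near background limits the dim genes, whose differences lean negative. Array weights gave WT replicate 1 a weight of 0.24 and WT replicate 3 one of 1.85, so that fit leaned on the male mouse.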
